A study of Mus musculus with 17 samples.

Results

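The neuropeptide genes Cck, Scg2, Gal, Grp, Adcyap1 and Nts were followed through cells and brain sections of the mouse anterior thalamic nuclei. They were taken by exact symbol, and all 6 members were found among 52636 genes of the single-cell table and among 28692 genes of the spot table. They were chosen with their levels in these neurons and in Tcf7l2-positive spots already known, so those levels are a description here and carry no test. The animals were B6 mice of wild-type genotype, without a treatment, and the labels used here give no age. Single cells were microdissected from acute slices, dissociated and picked by hand, and 3 animals of the well table, numbered 1 to 3, served as replicates. Brain tissue was also cut into sections of 10 µm for Visium arrays, whose spots each collect RNA from a patch of tissue that can hold several cells. There were 2 sections labelled posterior (sections 2 and 6) and 1 labelled anterior (section 5). The sources do not say whether the sections came from different animals, so tests over sections measure only the spread between sections, which may be technical. A hand-picked cell is a selected cell, and a level in a spot cannot tell fewer cells of a type from less RNA per cell. RNA was measured and not peptide, and 1 of the 6 genes, Nts, was not counted in any neuron, so "made by these neurons" holds as a description of RNA for 5 of them at most.

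Neuropeptides are made as larger precursors, cut and modified in dense-core vesicles by convertases such as Pcsk1 and Pcsk2, by carboxypeptidase E (Cpe) and by the amidating enzyme Pam, and released to act on receptors that are mostly coupled to G proteins. Cck encodes cholecystokinin, which acts through Cckar and Cckbr and is made by many forebrain neurons that release glutamate. Scg2 encodes secretogranin II, a granin that helps form the vesicles and is itself cut to secretoneurin. Gal encodes galanin (receptors Galr1 to Galr3), Grp gastrin-releasing peptide (receptor Grpr), Nts neurotensin (receptors Ntsr1 and Ntsr2 and the sorting receptors Sort1 and Sorl1), and Adcyap1 the peptide PACAP, which acts on Adcyap1r1, Vipr1 and Vipr2.

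Kept as single cells were 904 wells in which 1000 genes or more were detected, 103, 328 and 473 from animals 1, 2 and 3. Their median counts per cell were 49798, 8845 and 50474, so animal 2 was measured at lower depth. Clustering with the 6 members left out gave 4 neuron clusters with 428, 231, 179 and 39 cells (877 neurons) and cluster 5 with 27 oligodendrocyte-like cells. The neuron clusters carried Slc17a6, the vesicular glutamate transporter of thalamic relay neurons, at means of 816 to 1037 counts per 1000000 (CPM), and the thalamic transcription factor gene Tcf7l2 at 475 to 1024 CPM. Cluster 1 had the highest mean of Col27a1 (450 CPM), cluster 2 of Tnnt1 (488 CPM), cluster 3 of Calb2 (344 CPM) and cluster 4 of C1ql2 (1213 CPM). Col27a1 was also at 307 CPM in cluster 2 and at 288 CPM in cluster 4, whose animals (149 to 530 CPM) overlapped with cluster 1. Tnnt1 was also at 232 CPM in cluster 3, overlapping with cluster 2, and at 115 CPM in cluster 1. Cluster 3 also carried the GABA-synthesis gene Gad2 at 104 CPM, against 1.1 CPM or less in the other neuron clusters, and 6 of its 179 cells had at least 3 markers of GABA neurons. All 27 cells of cluster 5 had at least 3 of the listed oligodendrocyte markers, but the cluster also had Slc17a6 at 288 CPM. The sections held 2794, 2540 and 2493 spots with median counts of 8990, 5313 and 7210 per spot in sections 2, 5 and 6. Of their spot barcodes, 1500 to 1774 were shared by a pair of sections, as arrays printed with one barcode set do.

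The genes lie on separate chromosomes of GRCm38.p6, as listed by RefSeq. Scg2 (ENSMUSG00000050711) spans chr1:79434366-79440026, Cck (ENSMUSG00000032532) chr9:121489824-121495694, Nts (ENSMUSG00000019890) chr10:102481756-102490418, Adcyap1 (ENSMUSG00000024256) chr17:93198245-93206541 and Gal (ENSMUSG00000024907) chr19:3409915-3414544. Grp is ENSMUSG00000024517. Because Scg2, Cck and Gal are the 3 members deep enough to be tested between groups of thalamic spots, the 100 bases before each one's start are shown as flanking context, in the direction of transcription. All 3 genes lie on the minus strand, and the stretches are chr1:79440027-79440126, chr9:121495695-121495794 and chr19:3414545-3414644, all from RefSeq on GRCm38.p6.
Scg2: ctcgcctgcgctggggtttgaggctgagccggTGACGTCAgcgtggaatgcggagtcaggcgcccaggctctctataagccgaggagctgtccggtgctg
Cck: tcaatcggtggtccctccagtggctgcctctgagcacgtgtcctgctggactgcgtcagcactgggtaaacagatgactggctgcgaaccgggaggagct
Gal: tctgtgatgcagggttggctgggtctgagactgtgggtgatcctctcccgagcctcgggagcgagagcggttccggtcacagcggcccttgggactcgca
The capitals in Scg2 mark TGACGTCA, the palindromic cAMP response element, which begins 68 bases before the start. Searched on both strands of the 250 bases before a start, it was in the window of Scg2 and in none of the windows of Cck, Gal, Nts and Adcyap1, and 506 of 32536 windows (1.56%) held it. A match is only a run of letters in this window and was not tied to any measured level.

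Cck was the most widely detected member in neurons. Summed over all neurons of an animal it stood at 1149, 1486 and 1366 CPM in animals 1, 2 and 3, a mean of 1334 ± 171 CPM (SD, n = 3), and 818 of 877 neurons (93.3%) had at least 1 count. Its 10 richest cells held 8.68% of its 50783 counts, so the level was spread over most neurons. By cluster, Cck was at 1219, 1466 and 1405 CPM in cluster 1, at 1444, 991 and 1104 CPM in cluster 2, and at 1222, 2135 and 1956 CPM in cluster 3. In the C1ql2-carrying cluster 4 it was at 254, 483 and 248 CPM, below every value of the other 3 neuron clusters. The order of means ran from cluster 3 (1771 ± 484 CPM) through cluster 1 (1363 ± 129) and cluster 2 (1180 ± 236) to cluster 4 (329 ± 134). The animals' values of clusters 1, 2 and 3 overlapped, and those of cluster 4 did not overlap with them. Cluster 4 had few cells per animal, with 6, 9 and 24.

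Scg2 had a mean of 325 ± 22.3 CPM over all neurons and was counted in 576 of them (65.7%). Cluster 3, the Calb2-carrying cluster, held 1013, 634 and 721 CPM of Scg2 in animals 1, 2 and 3. Cluster 2 followed with 464, 364 and 353 CPM, all below the lowest value of cluster 3. Cluster 1 had 88.8, 154 and 113 CPM, and cluster 4 had 4.26, 242 and 133 CPM. The order was therefore cluster 3 (789 ± 198 CPM), cluster 2 (394 ± 60.8) and then clusters 1 (118 ± 32.9) and 4 (126 ± 119), whose values overlapped. The low value of cluster 4 in animal 1 rested on 3 counts in 6 cells. With every cell thinned to 5000 counts, which left out 61 shallower neurons, all of animal 2 or 3, Scg2 was detected in 76.3 ± 10.99% of cells of cluster 3, 53.7 ± 1.03% of cluster 2, 28.0 ± 9.60% of cluster 1 and 34.3 ± 15.3% of cluster 4. The unthinned shares were 86.8%, 74.3%, 50.2% and 63.0%.

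Gal was concentrated in fewer cells. It had 163, 126 and 196 CPM in animals 1, 2 and 3 and was counted in 273 of 877 neurons (31.1%), with 28.7% of its 6996 counts in 10 cells. Among the neurons with a count its median was 322 CPM and its highest value 2716 CPM. Cluster 2 was the low one, with 29.9, 13.5 and 14.3 CPM, below every value of the other 3 neuron clusters. Cluster 1 had 231, 137 and 304 CPM, cluster 3 had 44.4, 193 and 147 CPM, and cluster 4 had 304, 80.6 and 220 CPM. These 3 clusters overlapped, and their order (224 ± 83.6, 128 ± 76.3 and 202 ± 113 CPM) was within the spread of the animals. After thinning, Gal was detected in 30.7 ± 4.43% of cells of cluster 1, 24.5 ± 7.45% of cluster 3, 24.1 ± 8.49% of cluster 4 and 5.34 ± 3.30% of cluster 2. The unthinned shares were 40.7%, 33.8%, 43.1% and 10.9%.

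Grp and Adcyap1 were rare, and each was found mainly in different clusters. Grp was counted in 45 of 877 neurons (5.13%), and 42 of those 45 lay in cluster 1, the cluster richest in Col27a1. There it had 59.4, 9.83 and 26.6 CPM in animals 1, 2 and 3, so it was seen in all 3 animals at levels that differed widely. Clusters 2 and 4 held no Grp count in 231 and 39 cells, and cluster 3 held 23 counts in 3 cells. The 10 richest cells carried 60.4% of all 538 Grp counts. Adcyap1 was counted in 31 neurons (3.53%), 18 of them in cluster 3 and 9 in cluster 4. In cluster 3 it had 21.4, 24.3 and 10.4 CPM, and in cluster 4 it had 0, 18.6 and 14.3 CPM. In cluster 1 it had 1 count in 428 cells and in cluster 2 it had 18 counts in 3 cells. The value of animal 1 in cluster 3 came from 28 counts in 1 cell, and the 10 richest cells carried 76.3% of its 194 counts. Levels of these 2 genes therefore rest on few cells.

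Nts had 0 counts in 877 neurons among 37873433 counts. A count of 0 allows up to 0.342% of neurons with a count. This limit is 3 in 877 neurons, takes the neurons as independent and leaves out the spread between animals. The only Nts count of the 904 cells lay in an oligodendrocyte-like cell of animal 3.

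**Figure D1:**
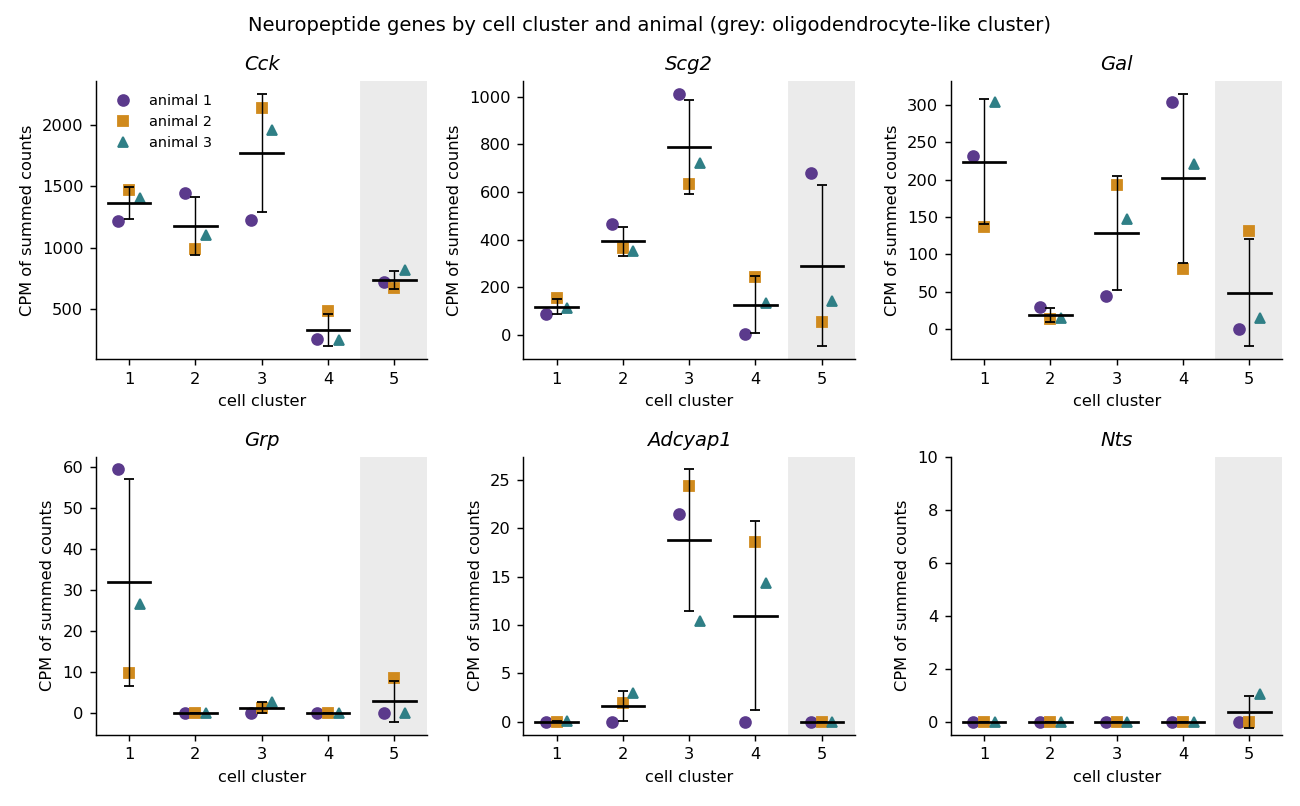
CPM of each neuropeptide gene (y axis, linear, from counts summed per animal and cluster) in cell clusters 1 to 5 (x axis). Symbols are the 3 animals, horizontal bars their mean and whiskers the SD, which can reach below 0. Scg2 is highest in cluster 3 and Gal lowest of the neuron clusters in cluster 2, while Nts lies at 0 in clusters 1 to 4.

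Counts outside neurons and in shallow wells are set beside these levels. The 27 oligodendrocyte-like cells had Cck at 737 ± 74.6 CPM in 43.1% of cells, Scg2 at 291 ± 340 CPM in 37.0% and Gal at 48.4 ± 71.6 CPM in 10.8% (means of 3 animals with 2, 11 and 14 cells, and median counts of 94106, 8752 and 37140 per cell). These cells also carried Slc17a6 and Tcf7l2, so they are no clean negative. Scg2 in these cells was at 680, 52.2 and 141 CPM in animals 1, 2 and 3, the highest from 128 counts in 1 of 2 cells, and overlapped with Scg2 of cluster 1 (88.8, 154 and 113 CPM) and cluster 4 (4.26, 242 and 133 CPM). Cck of cluster 4, at 254, 483 and 248 CPM, was below that of the oligodendrocyte-like cells (723, 671 and 818 CPM) in each animal. In 52 spike-in (ERCC) wells, leaving out 1 plate whose such wells had cell-like depth, there were 10030 counts in all, with 3 of Cck, 3 of Scg2 and none of the other 4 members. The 16 blank wells had 323 counts in all, 2 of them of Cck and 1 of Scg2, too few to give a level. The 56 control wells marked qRNA were far deeper, with 4367024 counts in all. They had 5 counts of Cck (1.14 CPM), 4 of Scg2 (0.92 CPM) and none of the other 4 members. The 40 wells just above the limit of 1000 genes, with fewer than 1500, passed it as cells and are no background. They had Cck at 410 CPM and Scg2 at 325 CPM. Of the 54 Scg2 counts, 41 came from 3 wells of 1 plate, and the other 37 wells had Scg2 at 94.9 CPM. Just below it, 23 wells with 500 genes or more had Cck at 220 CPM and Scg2 at 31.5 CPM, from 14 and 2 counts. The 281 wells with fewer than 500 genes had 9 counts of each gene in 17169 counts, or 524 CPM. Of these wells, 88, 71 and 88 lay on plates 493, 494 and 495 and were nearly empty, with medians of 14, 15 and 11 counts. They held 3, 1 and 3 of the Cck counts and 3, 1 and 0 of the Scg2 counts. No doublet caller was run on these hand-picked cells.

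Most neurons carried RNA of more than 1 of these genes. At 5000 counts per cell, 2 of the members were detected together in 42.6%, 48.1% and 48.4% of the 101, 258 and 457 neurons of animals 1, 2 and 3, and 3 members in 7.92%, 11.6% and 9.41%. Cck was present in 91.3%, 94.9% and 93.4% of neurons with Gal, and in 74.4%, 93.5% and 84.6% of those without. For neurons with Scg2 the shares with Cck were 82.5%, 95.2% and 91.7%, against 75.4%, 92.5% and 82.6% of the others. Gal was found in 20.0%, 21.8% and 20.6% of neurons with Scg2 and in 24.6%, 23.9% and 25.3% of those without, so the 2 genes were neither joined nor separated by more than a few percentage points. Scg2 was detected in 0 of 5, 1 of 6 and 1 of 17 neurons with Grp, and in 39.6%, 48.1% and 44.6% of all neurons. Most neurons with Grp lay in cluster 1, where Scg2 was detected in 20.0%, 38.6% and 25.3% of cells at this depth. The part of the cluster in this difference was not tested. Grp and Adcyap1 were not seen in the same cell in 816 neurons, with 28 and 12 neurons carrying either one. Grp was in 4.95%, 2.33% and 3.72% of all neurons. With 12 carriers of Adcyap1, the lack of shared cells does not show that the 2 genes avoid each other.

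Over the 12 sums of 4 neuron clusters and 3 animals, the genes whose pattern most resembled each member were listed from 7489 genes with a mean of at least 20 CPM. The measure was Pearson's r of log2(CPM + 1), centred on each animal. The 12 points share animals, depth and clusters, and r is a description. Cck was followed most closely by Ncdn (r = 0.96), Rasgrf2 (0.96) and Tcf4 (0.95), of which Rasgrf2 had 89.8 CPM in cluster 3 and 0.519 CPM in cluster 4. Scg2 was followed by Smad2 (0.98), Impact (0.96) and AW549877 (0.96). Gal was followed by Lsm4 (0.94), Mpc1 (0.92) and Ldhb (0.92), the last a subunit gene of lactate dehydrogenase. Grp was followed by Nrp2 (0.90), Car4 (0.90) and Lhfp (0.89), all highest in cluster 1. Adcyap1 was followed by C1ql3 (0.93), 2610524H06Rik (0.92) and Flot1 (0.91).

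Genes of the machinery that makes and stores peptides were counted in these neurons, in widely differing shares of cells. The shares ran from 1.37% of neurons for Qpct through 13.1% for Pcsk1 to 95.3% for Cpe. Whether they were counted in the same cells as the members was not tested. Of 15 genes for precursor processing and dense-core vesicles, all 15 had a count in the cells and 14 reached 20 CPM in at least 1 neuron cluster. Cpe had 1261, 799, 1046 and 1117 CPM in clusters 1 to 4 and a count in 95.3% of neurons. The granin gene Chgb had 729, 451, 998 and 919 CPM, and Pcsk1n, which encodes an inhibitor of the convertase Pcsk1, had 390, 221, 746 and 1457 CPM. Pcsk2 was at 216 CPM in cluster 2 and at 374, 447 and 710 CPM in clusters 1, 3 and 4. Pcsk1 was highest in cluster 1, with 32.0 ± 2.39 CPM against 5.0 CPM or less in the other 3. Of the 15 genes, 9 had their lowest mean in cluster 2, 4 in cluster 4 and 1 each in clusters 1 and 3, a description without a test. The share of all genes with their lowest mean in cluster 2 is not given here, so these counts show no trait of the list.

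Receptors were sparser. All 14 listed receptor genes had a count, and 4 reached 20 CPM in a neuron cluster. These were Sort1 (97.0 to 151 CPM over the 4 clusters), Sorl1 (14.8 to 315 CPM, highest in cluster 4), Adcyap1r1 (24.6 to 63.8 CPM, highest in cluster 3) and Ntsr1 (0.6 to 20.6 CPM, highest in cluster 3). The receptor genes of cholecystokinin, galanin and gastrin-releasing peptide stayed under 20 CPM in every neuron cluster. Of 28 other neuropeptide genes, 21 had a count and 5 reached 20 CPM in a cluster. Calca, which encodes calcitonin and calcitonin gene-related peptide, had 76.5 ± 20.5 CPM in cluster 2 and 67.0 ± 15.9 CPM in cluster 3, and 8.0 and 0.1 CPM in clusters 1 and 4. Nppc, the gene of C-type natriuretic peptide, had 38.6 ± 3.0 CPM in cluster 3, and Nmb, the gene of neuromedin B, 24.6 ± 26.5 CPM in cluster 2. Sst (somatostatin, 56.9 ± 65.0 CPM) and Penk (proenkephalin, 29.7 ± 30.02 CPM) were highest in cluster 3, which also carried Gad2, with means of at most 0.14 CPM in the other 3 neuron clusters.

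In the sections, Tcf7l2-positive spots (at least 1 count of Tcf7l2) numbered 586, 439 and 558 in sections 2, 5 and 6. This contrast chose the members, so it is described and not tested. Gal was at 19.9, 9.75 and 7.54 CPM in positive spots and at 8.66, 8.75 and 4.49 CPM in the others. The ratios were 2.30, 1.11 and 1.68, so it was higher in sections 2 and 6 and nearly level in section 5. In section 5, 23 counts gave an exact Poisson interval of 6.18 to 14.6 CPM, around that of the others (7.12 to 10.6 CPM). In section 6 the intervals overlapped at their ends (5.12 to 10.7 against 3.47 to 5.73 CPM). Cck was at 446, 391 and 557 CPM against 613, 470 and 573 CPM, lower in all 3. Scg2 was at 295, 260 and 254 CPM against 229, 231 and 258 CPM, higher in sections 2 and 5 and level in section 6. Nts had 16.5, 8.48 and 11.2 CPM against 19.6, 12.9 and 11.5 CPM. Grp had 6.36, 2.12 and 3.65 CPM against 5.84, 3.76 and 6.01 CPM, and Adcyap1 had 9.28, 10.6 and 11.2 CPM against 10.8, 10.9 and 11.5 CPM. Across all genes, 22.1% of 14350 passed an adjusted p of 0.05 in this contrast (edgeR's quasi-likelihood test), 10.5% higher and 11.6% lower in positive spots.

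A Tcf7l2 count did not confine the spots to thalamus. Of all positive spots, 39.4% lay in spot region 7, whose leading genes Shox2, Tcf7l2, Gbx2 and Ntng1 mark thalamic neurons, and 15.9% lay in region 2, led by Oxt, Avp and Otp, genes of the hypothalamus. Within region 7, positive spots had Nts at 5.44, 1.09 and 2.51 CPM in sections 2, 5 and 6. Positive spots elsewhere had Nts at 22.4, 13.2 and 16.7 CPM, higher in all 3 sections. For Cck the values were 614, 479 and 673 CPM in positive spots of region 7 and 357, 335 and 484 CPM in those elsewhere, so the lower Cck of all positive spots came with their spots outside region 7. Gal had 21.8, 7.65 and 10.0 CPM in positive spots of region 7 in sections 2, 5 and 6. Positive spots elsewhere had Gal at 19.0, 11.1 and 5.95 CPM, with overlapping exact Poisson intervals in each section. The higher Gal of positive spots was therefore not confined to region 7. By the number of Tcf7l2 counts, Nts was lower in spots with 6 or more (8.91, 0 and 6.205 CPM) than in spots with 1 (23.5, 10.8 and 15.2 CPM).

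**Figure D2:**
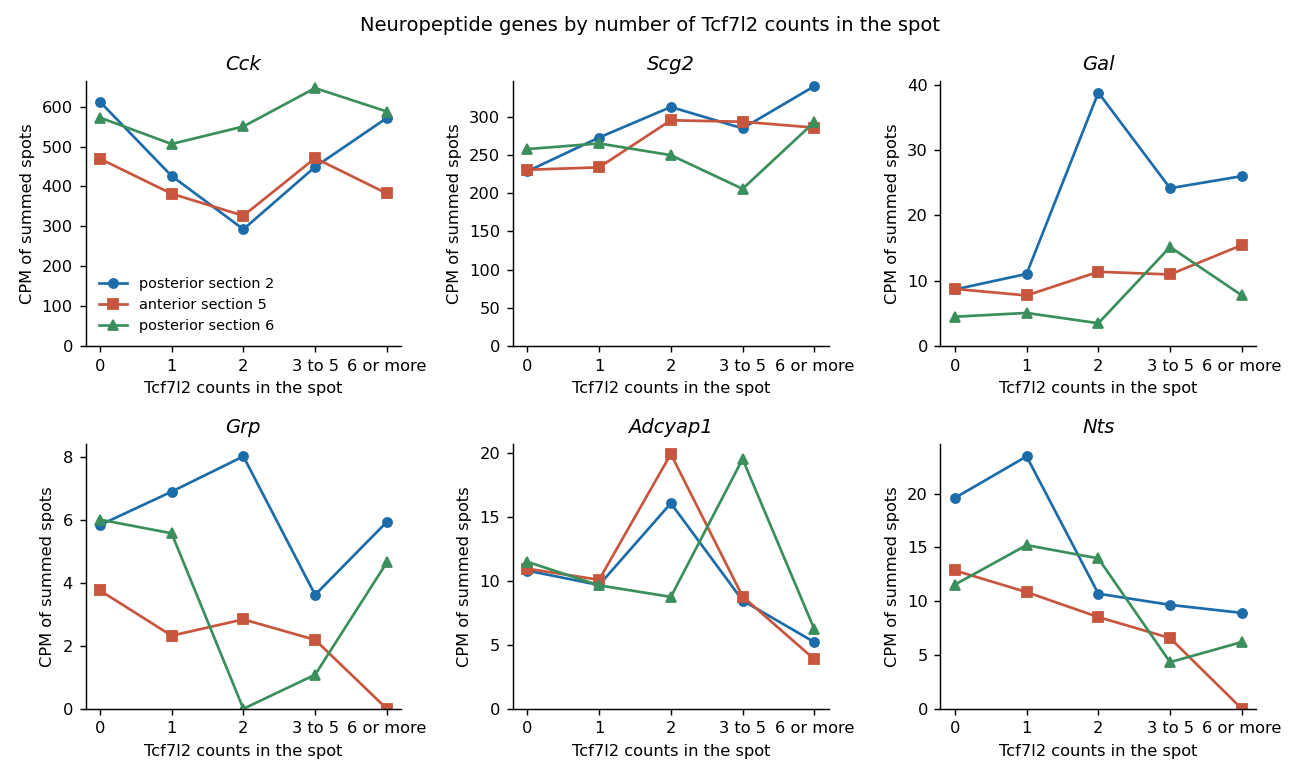
CPM of each neuropeptide gene (y axis, linear) in spots grouped by their number of Tcf7l2 counts (x axis), with 1 line per section. Cck in section 2 is at 613 CPM at 0 counts, 293 CPM at 2 and 572 CPM in the highest group, while Nts is lower in the highest group than at 1 count in all 3 sections.

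Clustering of all 7827 spots, again without the members, gave 12 regions. Cck was highest in region 12 (1384 CPM, 69 spots of section 6 only), in region 1 (1002 ± 98.1 CPM, n = 3 sections), led by the cortical gene Lamp5, and in region 6 (989 ± 78.5 CPM). The thalamic region 7 ranked 5 of 12, with 612, 470 and 667 CPM in sections 2, 5 and 6 and a count in 92.6% of its spots. Region 8 (716 ± 207 CPM) and region 5 (574 ± 97.3 CPM) overlapped with it. Scg2 had its highest level in region 2, with 569, 591 and 727 CPM. Region 7 came next, with 328, 261 and 224 CPM, and overlapped with regions 9 and 5.

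Gal and Nts both had their highest level in the Oxt-led region 2, but differed in region 7. Gal had 64.3, 51.4 and 26.4 CPM in region 2 and 21.6, 8.19 and 9.71 CPM in region 7, the next highest mean of the 12 regions (13.2 ± 7.33 CPM). For Gal, regions 10 and 11 overlapped with region 7, region 9 lay below it (3.20 to 6.42 CPM), and the remaining regions had means of 2.54 CPM or less. Nts had 68.2, 33.1 and 40.3 CPM in region 2, 46.1, 28.1 and 21.0 CPM in region 5 and 26.2, 22.2 and 23.4 CPM in region 3, led by Pde10a. In region 7 it had 5.39, 1.02 and 2.43 CPM, from 16 counts in 649 spots. Grp was highest in region 6 (13.7 ± 3.79 CPM) and had 4.14 ± 1.73 CPM in region 7. Adcyap1 was highest in regions 2 (21.1 ± 4.80 CPM) and 1 (19.4 ± 1.01 CPM) and had 8.82 ± 1.87 CPM in region 7.

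**Figure D3:**
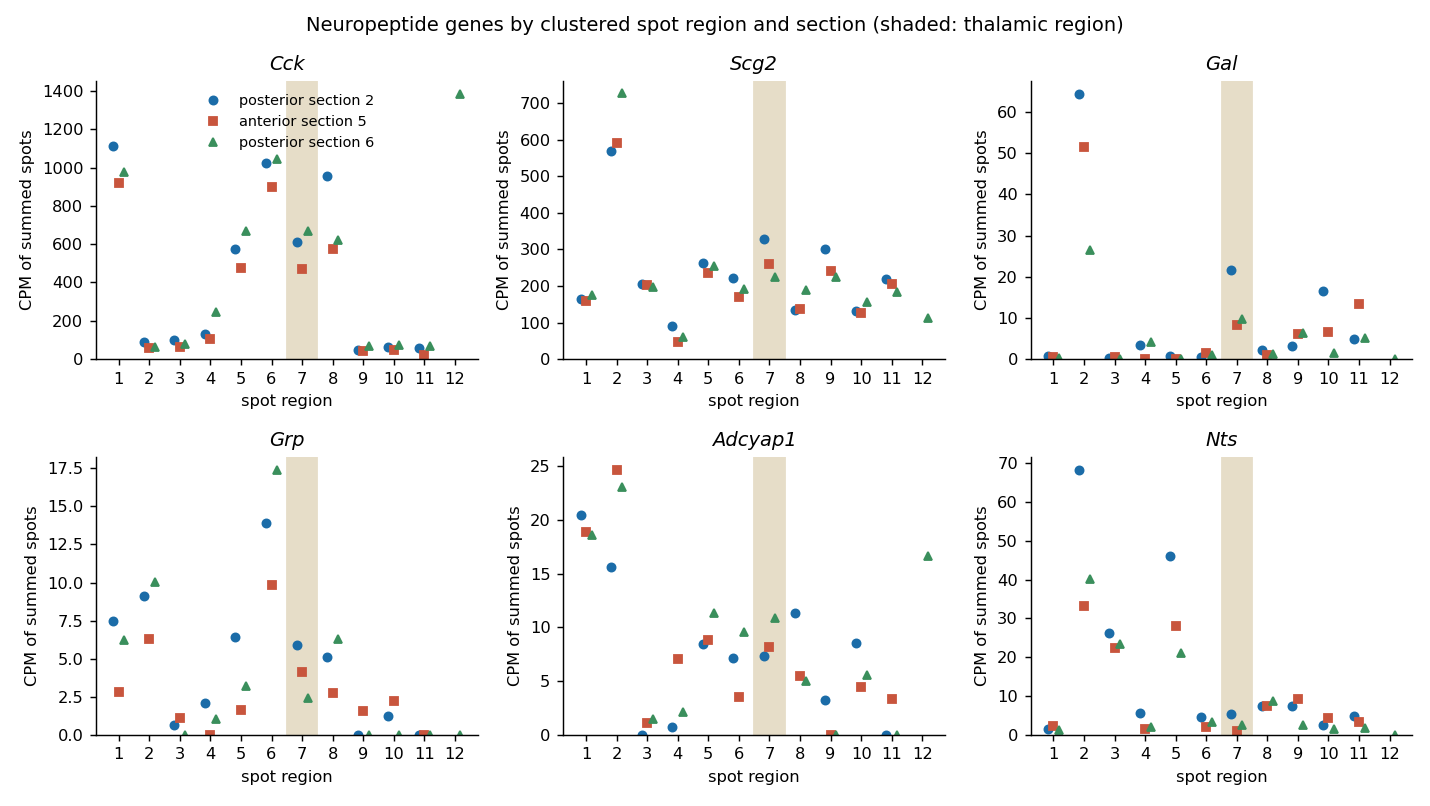
CPM of each neuropeptide gene (y axis, linear) in 12 clustered spot regions (x axis), with 1 symbol per section and the thalamic region 7 shaded. Region 12 is shown for the 1 section with enough of its spots. Gal and Scg2 are highest in region 2 and next in region 7, and Nts is at or under 5.39 CPM in region 7.

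With 1 anterior section, position along the brain axis is described by values only, with exact Poisson 95% intervals that cover counting error. In the thalamic region, Cck was at 470 CPM (428 to 515) in the anterior section, below both posterior sections at 612 CPM (579 to 647) and 667 CPM (628 to 707). Its interval did not overlap with either of theirs. Scg2 in the anterior section, 261 CPM (230 to 295), lay between posterior section 2, 328 CPM (304 to 354), and posterior section 6, 224 CPM (202 to 249). Gal was at 8.19 CPM (3.54 to 16.1) in the anterior section against 21.6 CPM (15.7 to 29.0) and 9.71 CPM (5.55 to 15.8). The intervals of Grp, Nts and Adcyap1 overlapped across all 3 sections. Thalamic spots of the anterior section were also shallower, with a median of 4741 counts against 9420 and 6572.

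Within region 7, spots were then divided by genes with their highest means in different neuron clusters. These were C1ql2 (listed as an anterodorsal marker), Calb2 (anteromedial and midline), Col27a1 (anteroventral) and Tnnt1, highest in cell cluster 2. In the cells, Col27a1 and Tnnt1 were each carried by several neuron clusters, so spots positive for them do not stand for 1 neuron type. A spot was positive with at least 1 count of the marker. The choice of members did not use these divisions, and they were tested over the 3 sections, with positive and other spots of a section as a pair (edgeR's quasi-likelihood test, section as a block, Benjamini-Hochberg adjustment over all genes tested). Cck, Scg2 and Gal passed the filter on low counts in each division. Grp, Nts and Adcyap1 did not, so 3 of the 6 members were tested 4 times each, and 4 of these 12 tests passed.

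Scg2 was higher in Calb2-positive thalamic spots. It had 366, 310 and 274 CPM in the 160, 102 and 143 positive spots of sections 2, 5 and 6, and 181, 199 and 147 CPM in the 48, 96 and 100 other spots. Every positive value lay above every other value. The log2 difference was 0.85 ± 0.12 (SE) with an adjusted p of 2.70e-08 in edgeR's test, and 7.91% of 8599 genes passed in this division, 4.04% higher and 3.87% lower. The difference passed under all 10 alternatives tried, with log2 differences of 0.75 to 0.95 and a largest adjusted p of 0.00475. Other genes moved with this division. The summed markers of hypothalamic neurons, mainly Oxt, were at 24, 136 and 810 CPM in positive spots against 17, 53 and 84 CPM. Those of oligodendrocytes were lower, at 6191, 4824 and 5270 CPM against 9423, 8081 and 9023 CPM. Among only the spots without a count of the hypothalamic list, the Scg2 difference was 0.79 with an adjusted p of 2.12e-04 (edgeR). Positive spots were also deeper, with medians of 9696.5, 5076 and 6817 counts against 8428, 4105 and 6001, and with every spot thinned to 2000 counts the difference was 0.85 with an adjusted p of 6.14e-04 (edgeR). Markers of GABA neurons were at 669, 528 and 419 CPM in positive spots against 1012, 782 and 582 CPM. The part of the oligodendrocyte and GABA markers was not tested.

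Cck and Gal did not pass in the Calb2 division. Cck had 577, 484 and 683 CPM in positive spots against 750, 452 and 642 CPM (log2 difference -0.09 ± 0.09, adjusted p = 0.657 in edgeR), lower in section 2 and higher in the other two. Gal had 21.6, 7.34 and 11.9 CPM against 21.5, 9.28 and 6.25 CPM (0.20 ± 0.44, adjusted p = 0.875 in edgeR). Adcyap1, under the filter, had 15, 7 and 15 counts in positive spots and 0, 1 and 3 counts in the others, or 9.25, 12.8 and 14.9 CPM against 0, 2.32 and 4.69 CPM. It was not tested, and it was higher in positive spots of all 3 sections. Grp, also untested, had 4, 1 and 3 counts in positive spots and 8, 3 and 1 in the others.

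Scg2 and Cck were lower in C1ql2-positive spots. These were few, with 44, 23 and 25 in sections 2, 5 and 6. Scg2 had 287, 149 and 60.8 CPM there against 342, 283 and 253 CPM, lower in each section, with an overlap because section 2 was high (log2 difference -0.79 ± 0.19, adjusted p = 0.0217 in edgeR). Cck had 477, 235 and 584 CPM against 656, 517 and 681 CPM, again lower in each section with overlapping groups (-0.51 ± 0.13, adjusted p = 0.0335 in edgeR). In this division 2.5% of 9072 genes passed, 1.58% higher and 0.926% lower. Both calls were fragile. Scg2 did not pass without section 6 (log2 difference -0.47, adjusted p = 0.456) and Cck did not pass without section 5 (-0.34, adjusted p = 0.372), both in edgeR, and 4 of 10 alternatives ended each call. The summed markers of cortical glutamate neurons were higher in C1ql2-positive spots, at 235, 483 and 547 CPM against 78, 49 and 129 CPM. In the cells, this cortical list was at 129 CPM in the C1ql2-carrying cluster 4 and at 9.09, 11.7 and 28.9 CPM in clusters 1 to 3. Markers of GABA neurons were lower in C1ql2-positive spots, at 399, 390 and 365 CPM against 850, 690 and 503 CPM. Anteromedial and midline markers were at 1025, 297 and 341 CPM against 967, 951 and 922 CPM, so they were lower in sections 5 and 6. Oligodendrocyte markers were at 6101, 4875 and 4760 CPM against 7099, 6537 and 7075 CPM. The spots were deeper, with medians of 10765.5, 6759 and 10076 counts against 9116, 4583 and 6389, and after thinning Cck passed (-1.16, adjusted p = 0.0377) and Scg2 did not (-0.98, adjusted p = 0.447), both in edgeR. The part of these marker lists in the results was not tested.

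Gal pointed the other way in the C1ql2 division. It had 26.1, 18.6 and 32.4 CPM in positive spots against 20.1, 6.14 and 5.71 CPM, from 13, 3 and 8 counts against 31, 5 and 8. It was higher in each section, but the difference did not pass (log2 difference 1.12 ± 0.48, adjusted p = 0.287 in edgeR). With positive spots taken from 2 counts of C1ql2 it passed (1.77, adjusted p = 0.0275 in edgeR).

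Scg2 was also lower in Col27a1-positive spots, with 255, 181 and 135 CPM in 37, 35 and 45 spots against 346, 280.5 and 249 CPM in the others. It was lower in each section, and the groups overlapped only through section 2 (log2 difference -0.63 ± 0.13, adjusted p = 0.00163 in edgeR). In this division 2.36% of 8561 genes passed, 1.14% higher and 1.21% lower. The call was lost without section 6 (-0.51, adjusted p = 0.120 in edgeR) and in 4 of 10 alternatives, one of them thinning (-0.60, adjusted p = 0.880 in edgeR). The markers of cortical glutamate neurons were higher in Col27a1-positive spots, at 192, 218 and 323 CPM against 98.5, 97.7 and 156 CPM. Those of the anteromedial and midline nuclei were lower, at 639, 159 and 402 CPM against 1061, 1006 and 954 CPM. The part of both lists was not tested. The hypothalamic list was lower in Col27a1-positive spots, at 13, 32 and 377 CPM against 25, 115 and 570 CPM, and without spots carrying it the Scg2 difference was -0.70 with an adjusted p of 0.00152 (edgeR). Cck had 694, 467 and 593 CPM against 593, 471 and 687 CPM (0.00 ± 0.10, adjusted p = 0.998 in edgeR). Gal had 26.0, 15.9 and 11.2 CPM against 20.5, 6.35 and 9.28 CPM (0.45 ± 0.49, adjusted p = 0.819 in edgeR).

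No member passed in the Tnnt1 division, in which 0.532% of 9590 genes passed, 0.24% higher and 0.292% lower. Cck had 751, 517 and 670 CPM in positive spots against 500, 448 and 665 CPM, higher in each section (log2 difference 0.29 ± 0.08, adjusted p = 0.0964 in edgeR). It passed when thalamic spots were taken as those with at least 3 Tcf7l2 counts (0.55, adjusted p = 0.00325 in edgeR). Scg2 had 307, 332 and 269 CPM against 346, 228 and 203 CPM (0.18 ± 0.11, adjusted p = 0.682 in edgeR). Gal had 16.4, 3.19 and 7.53 CPM against 25.8, 10.6 and 10.7 CPM, lower in each section (-0.71 ± 0.43, adjusted p = 0.684 in edgeR).

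**Figure D4:**
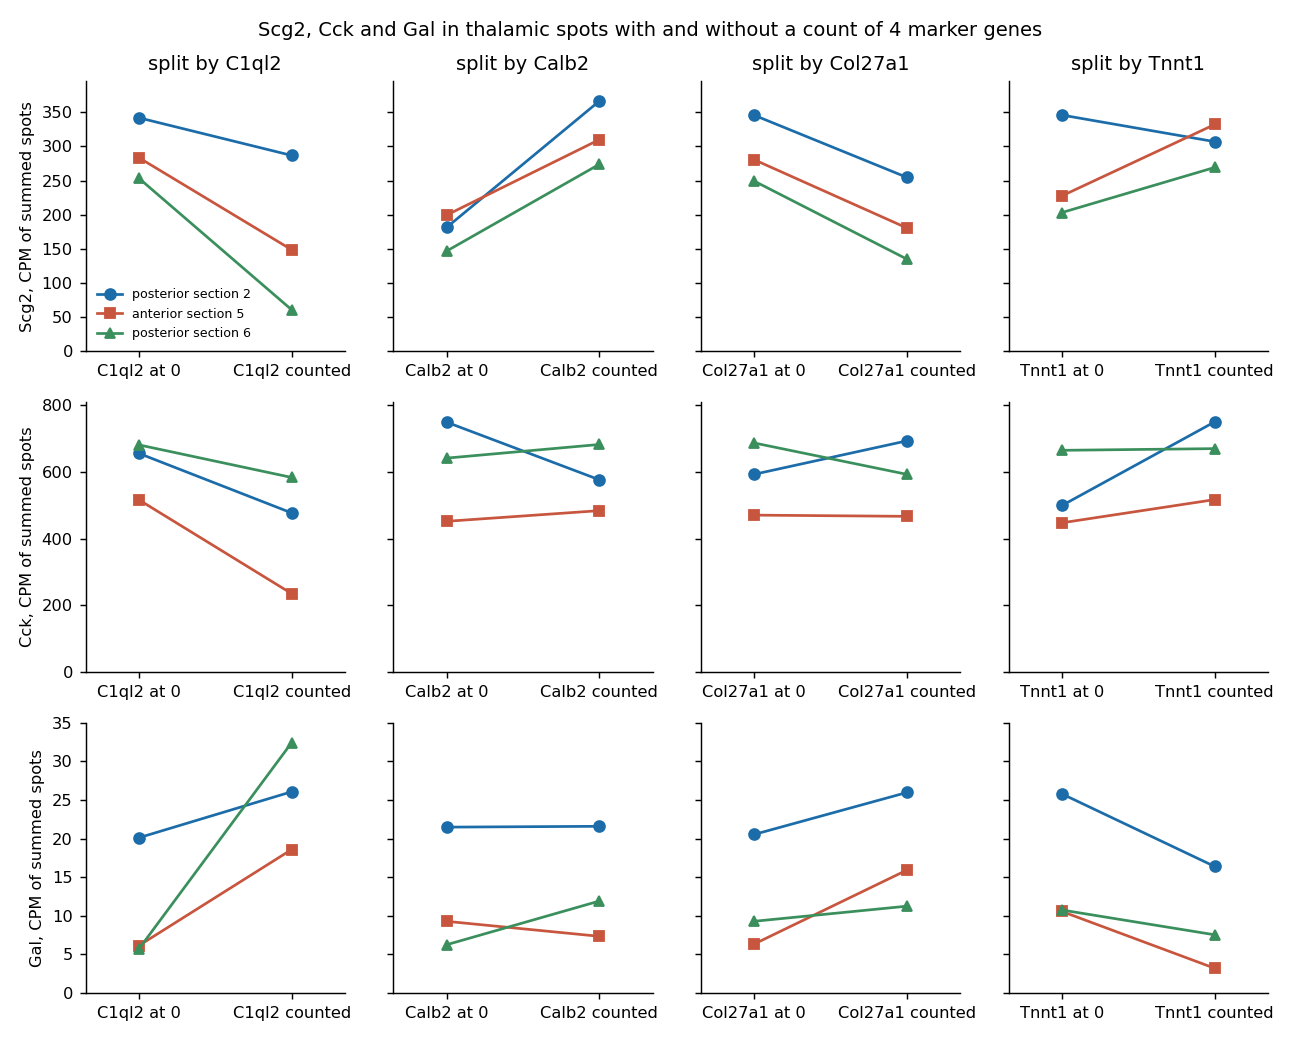
CPM of Scg2, Cck and Gal (rows, y axes linear from 0) in thalamic spots without and with a count of C1ql2, Calb2, Col27a1 or Tnnt1 (columns), with 1 line per section. Scg2 is higher with Calb2 in all 3 sections and is lower with C1ql2 and with Col27a1 in all 3.

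Other neuropeptide genes were tested in the same divisions. Of 28 listed, 20 were deep enough in the Tcf7l2 contrast, where 2 rose and 9 fell (median log2 difference -0.18, against 0.00 over all genes). That contrast chose the members, so the lists are given there as counts beside the 10.5% and 11.6% of all genes. Calca rose from 1.65 ± 0.12 to 12.4 ± 0.97 CPM (log2 difference 2.84 ± 0.20), and Nppc rose too. Penk (-1.46), Tac1 (-0.97) and Npy (-1.19), the genes of enkephalin, substance P and neuropeptide Y, had the smallest adjusted p among those that fell. In the Calb2 division 6 were tested, 2 rose and 3 fell. Nppc rose from 5.97 ± 3.45 to 19.3 ± 4.48 CPM (1.62 ± 0.50, adjusted p = 0.0260 in edgeR), and Oxt (oxytocin) rose as well, with 12.95, 123 and 697 CPM against 0, 46.4 and 53.1 CPM. Calca fell from 54.9 ± 18.3 to 20.5 ± 2.24 CPM (-1.41 ± 0.26, adjusted p = 4.03e-05 in edgeR), and Sst (-0.75) and Npy (-1.23) fell. In C1ql2-positive spots 8 were tested and 2 fell, Calca (-2.48 ± 0.49, adjusted p = 0.00301 in edgeR) and Sst (-1.35). In Col27a1-positive spots 1 of 7 fell, Oxt (-0.92), and none of 8 passed with Tnnt1. Calca passed in every alternative that gave it an adjusted p, 8 with C1ql2 and 9 with Calb2. With Calb2, Sst passed in 8 of 10, Oxt in 7 of 9, Npy in 2 of 4 and Nppc in 2 of 3. Sst with C1ql2 passed in 6 of 10 and Oxt with Col27a1 in 5 of 9. In the Tcf7l2 contrast Nppc passed in 5 of 10.

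Processing genes showed smaller differences. In the Tcf7l2 contrast all 15 were tested, 2 rose (Cpe by 0.21 and Chga by 0.15 on the log2 scale) and 7 fell, led by Cadps2 (-0.75), Chgb (-0.45) and Vgf (-0.37), with a list median of -0.15. In the Calb2 division, where Scg2 rose, the granin gene Chga fell (log2 difference -0.48 ± 0.11, adjusted p = 0.00232 in edgeR), Cpe fell (-0.31 ± 0.08) and Pcsk1n rose (0.33 ± 0.08), among 12 tested. Pcsk2 rose with C1ql2 (0.48 ± 0.12, adjusted p = 0.0286 in edgeR), 1 of 12, and Chga rose with Col27a1 (0.44 ± 0.13, adjusted p = 0.0455 in edgeR), 1 of 12 and higher in 2 of 3 sections. Cadps2, a gene of vesicle priming, fell with Tnnt1 (-1.70 ± 0.41, adjusted p = 0.0304 in edgeR), 1 of 13. Most of these calls were fragile. Chga passed in 3 of 10 alternatives with Tcf7l2, 5 of 10 with Calb2 and 2 of 10 with Col27a1. Cpe and Pcsk1n with Calb2 each passed in 6 of 10, Pcsk2 with C1ql2 in 5 of 10 and Cadps2 with Tnnt1 in 5 of 7.

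Receptor genes divided evenly in the Tcf7l2 contrast, where 10 of 13 in the table were tested, 4 rose and 4 fell (list median 0.17). Galr1, a galanin receptor gene, rose from 0.40 ± 0.24 to 1.70 ± 0.37 CPM (log2 difference 2.19 ± 0.52), at a low level. Ntsr2 (0.28) and Adcyap1r1 (0.32) rose, and Cckbr fell from 30.6 ± 0.52 to 14.1 ± 1.91 CPM (-1.13 ± 0.11), as did Sort1 (-0.47) and Sorl1 (-0.37). Inside the thalamic region 4 were tested in each division. Sort1 fell with Calb2 (-0.47 ± 0.14, adjusted p = 0.0260 in edgeR) and Sorl1 fell with Tnnt1 (-0.61 ± 0.15, adjusted p = 0.0304 in edgeR). Both calls were fragile, Sort1 passing in 2 and Sorl1 in 4 of 10 alternatives. None of the 4 passed with C1ql2 or Col27a1.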

How the data were processed

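Single cells and Visium sections of wild-type mice were analysed. Both tables hold raw counts as deposited by the authors, per gene and well and per gene and spot, and the deposited well and spot lists give animal numbers and section names (other unit). The submitters' processing notes name Seurat, Space Ranger, mm10 and NCBIM37. The aligner, the counting step and whether reads or molecules were counted in the cells are not given in the sources used here. No label ties the 14 single-cell samples to plates, so the animal number was the replicate. Of 1216 wells with a cell, 9 of unclear animal were left out, and cells with at least 1000 genes were kept.

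For clustering, totals were set to 10000 and logged, the 6 members were dropped, and 2000 variable genes gave 30 components (Leiden, 15 neighbours, resolution 0.5; scanpy 1.11.5, Python 3.11.15). The thalamic region was the one with the highest mean of listed thalamic markers. CPM values are counts summed per animal or section and group, scaled to 1000000. Tests of spot sums used edgeR 4.0.16 in R 4.3.3 (TMM, filterByExpr, section as a block). Positive and other sums of 1 section deviated together (median correlation 0.18, range 0.09 to 0.45, against -0.11 for sums of different sections). DESeq2 1.42.0, no filter, no block, each section left out, other limits of positivity and thinning to 2000 counts per spot were alternatives. On simulated counts for the Calb2 division with 8323 genes, 72.2% of genes changed by 1 and 100% of those changed by 2 on the log2 scale were recovered. For C1ql2 with 8780 genes these shares were 58.5% and 85.4%, and for Col27a1 with 8335 genes 60.8% and 91.9%. Of the genes called on simulated counts, 9.5% were false for Tcf7l2, above the share of 0.05 that the adjusted p aims at. For C1ql2, Calb2, Col27a1 and Tnnt1 the false shares were 1.44%, 3.43%, 3.23% and 2.84%. Named genes were the 6 members, the 3 genes per direction and list with the smallest adjusted p under 0.05, and the 3 nearest patterns per member; Otp, Shox2 and other leading genes only name regions, and cell levels of list genes were named after their values were seen. Members, lists and divisions were chosen with earlier results of these data known. Sequences and positions are from RefSeq on GRCm38.p6, used here for 5 of the 6 members. Some results are not reported here.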

Additional observations from a re-analysis of the deposited data

Results flagged for a closer look

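The 8 wells with at least 1000 genes whose animal is unclear are used in no comparison. They held Cck at 2283 CPM and Scg2 at 1250 CPM, above the 299 CPM of each gene in 52 spike-in (ERCC) wells. That 299 CPM came from 3 counts of each gene among 10030 counts, so it is no firm level either. The 16 blank wells had 2 Cck counts and 1 Scg2 count in 323 counts (6192 and 3096 CPM), too few to give a level to compare with. Cck was counted in 7 of the 8 wells and Scg2 in 4. Gal had 36 counts, Adcyap1 22 in 1 well, and Grp and Nts none.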

How the results depend on the processing

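Of the 105 alternative values of Cck, Scg2 and Gal in the 4 marker divisions, 80 kept direction and side of the threshold, 12 lost a call, 4 gained one and 9 reversed. All reversals were in differences that had not passed. For Cck with Calb2, leaving out 1 section gave -0.18 to 0.064 (reversed without section 2). For Cck with Col27a1, leaving out 1 section gave -0.14 to 0.13 (reversed without section 2), and the value was -0.042 both without a filter and from 2 counts, -0.088 after thinning and -0.0044 without spots carrying the hypothalamic list. For Gal with Calb2, leaving out 1 section gave -0.063 to 0.32 (reversed without section 6), and it was -0.0064 from 2 counts. For Scg2 with Tnnt1 it was -0.12 after thinning. The calls of Scg2 and Cck with C1ql2 and of Scg2 with Col27a1 were each lost under DESeq2 (adjusted p = 0.0909, 0.233 and 0.137) and without the section as a block (0.370, 0.427 and 0.328). Numbers of genes called moved most, and the cause was not tested. They were 3170 for Tcf7l2, 227 for C1ql2, 680 for Calb2, 202 for Col27a1 and 51 for Tnnt1. With DESeq2 they were 1423, 39, 134, 28 and 1, without the replicate block 1447, 50, 226, 9 and 2, and after thinning 1317, 23, 155, 10 and 4. For the single gene called with Tnnt1 by DESeq2, 97 had an unadjusted p under 0.05. Leaving out 1 section gave 63 to 437 for C1ql2, 324 to 501 for Calb2, 72 to 110 for Col27a1 and 11 to 33 for Tnnt1. Positive from 2 counts gave 625 for C1ql2 and 121 for Col27a1, and spots with at least 3 Tcf7l2 counts gave 109 for C1ql2 and 116 for Tnnt1. Without the hypothalamic list, an alternative chosen after seeing the data, 404 were called for Calb2 and 78 for Tnnt1. The share of higher genes moved by over 10 percentage points for C1ql2 without a filter (49.2% against 63.0%) and after thinning (39.1%), and for Tnnt1 and Col27a1 without a filter (29.5% against 45.1%, 36.1% against 48.5%). Cluster levels of the members stayed within 1 SD of the 3 animals in 167 of 168 alternatives. Many of these could not have moved. Leaving out 1 of 3 animals cannot shift a mean by 1 SD, and levels of 0, as for Nts, stay at 0. In Tcf7l2-positive spots of region 7 alone, chosen after seeing the data, the log2 difference of Cck was 0.09 instead of -0.30 and that of Nts -2.13 instead of -0.30.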
